A study of Caenorhabditis elegans with 21 samples.

Results

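Transcripts of the insulin receptor to DAF-16 pathway were examined in poly(A) RNA of *C. elegans* that lack the heterochromatin protein 1 homolog HPL-2. The genes were chosen by name: *daf-2*, *age-1*, *pdk-1*, *akt-1*, *akt-2*, *sgk-1*, *daf-18*, *daf-16* and *sod-3*, 9 of the 45461 genes in the count table, and all 9 were found and passed the expression filter. Whole animals of 2 strains grown at 20°C were sequenced, N2 (Bristol), the wild type, in 2 libraries, and *hpl-2*(*tm1489*), which carries a deletion in *hpl-2* and no other listed mutation, in 3 libraries. The sample labels call the N2 animals young adults and the *hpl-2*(*tm1489*) animals L4 larvae, whereas the study's methods give L4 for both, so that stage and genotype cannot be told apart. The labels name separate samples and the methods call them biological replicates.

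In this pathway insulin-like peptides act on the receptor DAF-2, which signals through the phosphoinositide kinase AGE-1 and the kinases PDK-1, AKT-1, AKT-2 and SGK-1. These kinases keep the forkhead transcription factor DAF-16 out of the nucleus, and the lipid phosphatase DAF-18 removes the product of AGE-1. When signaling is low, DAF-16 enters the nucleus and raises genes such as *sod-3*, and the pathway is known for its control of dauer formation, life span and stress resistance. These are mainly controls on protein and lipid phosphorylation, which transcript counts do not measure.

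Counts on genes totaled 80724052 and 66490671 in the N2 libraries and between 95252804 and 114718047 in *hpl-2*(*tm1489*). The gene with the most counts was *eef-1A.1* in both N2 libraries (0.84% and 1.04%). In mutant replicates 1, 2 and 3 it was *rrn-3.1*, at 1.04%, 2.71% and 6.24%. At least 1 count was found for 18836 and 18101 genes in N2 and for 20534, 20763 and 20536 in the mutant. The part of these differences in the fold changes was not tested. The *hpl-2* transcript itself was at 38.9 and 38.6 CPM (counts scaled to the TMM-adjusted library size) in N2 and at 26.7, 30.4 and 29.9 CPM in the mutant libraries. Its log2 fold change, -0.42 (standard error 0.26), was not called (edgeR adjusted p = 0.192), and because each gene has a single count, reads from the deleted stretch could not be looked at alone. Stage-dependent lists differed between the groups, and not all in the direction of the labeled stages. In the animals labeled L4, oocyte and eggshell genes were higher and vitellogenin genes lower than in those labeled young adult. Of 13 molting genes 10 were called lower and none higher, and of 13 oocyte and eggshell genes 13 were called higher. Of 6 vitellogenin genes 6 were called lower, and of 12 tested sperm genes 6 lower and none higher. Of 4 adult cuticle collagen genes 2 were called in each direction. Among all tested genes 61.5% were called, 33.9% higher and 27.6% lower. The summed level of the oocyte list ran from 581 to 800 CPM in N2 and from 1431 to 5363 CPM in *hpl-2*(*tm1489*), and that of the molting list from 1516 to 2031 and from 184 to 244 CPM. No gene of these lists was at 0 counts in every library. The part of these stage differences in the values below was not tested. In whole animals, fewer cells of a type and less RNA per cell cannot be told apart.

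Within the pathway *daf-18* rose 7.20-fold in *hpl-2*(*tm1489*), and *sod-3* rose 2.06-fold. Transcripts of *akt-2*, *daf-16* and *sgk-1* fell by 1.04, 0.88 and 0.64 on the log2 scale. The transcripts of *daf-2*, *age-1*, *pdk-1* and *akt-1* did not pass the threshold. These 5 calls of 9 stand against 61.5% of all 17498 tested genes called at the same threshold, 33.9% higher and 27.6% lower. The number of calls is thus near that of the whole table. In absolute size the *daf-18* change was at least that of 88.5% of tested genes. The figure was 50.4% for *sod-3*, 50.3% for *akt-2*, 43.5% for *daf-16* and 32.5% for *sgk-1*. Apart from *daf-18*, the called changes were of middling size or smaller for this table. The median log2 fold change of the 9 genes was -0.53, and that of all tested genes was 0.16. The split of 2 higher and 3 lower was 1 and 5 under upper quartile normalization, 3 and 2 when only library size was used, and 3 and 1 with offsets for gene span. For 6 of the 9 genes the groups did not overlap, against 72% of tested genes.

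**Figure D1:**
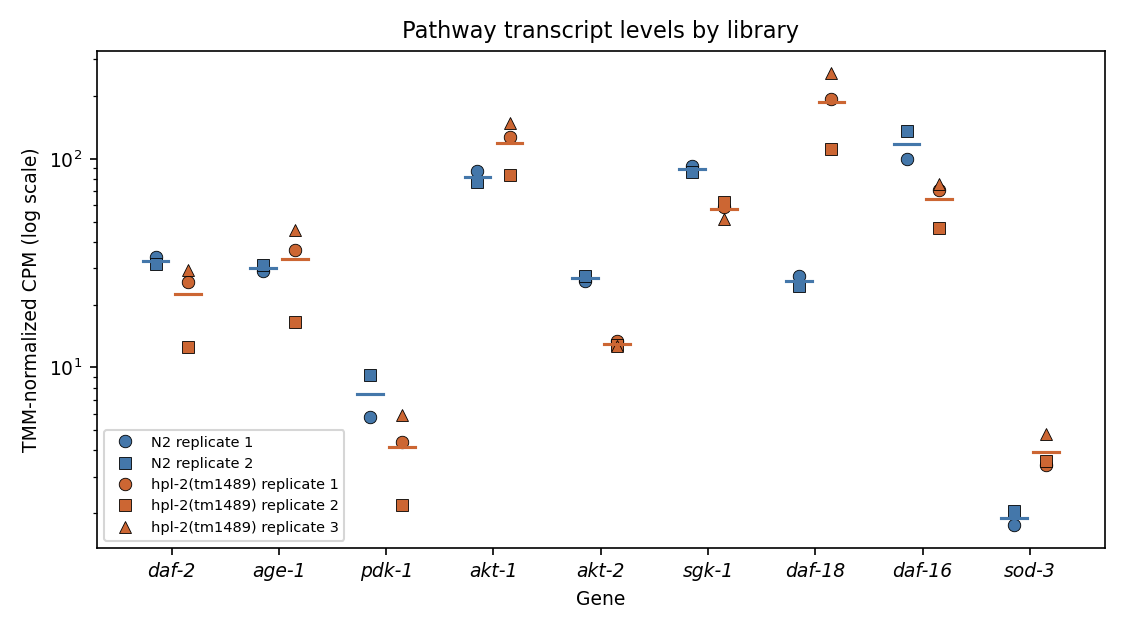
Level of each pathway transcript in each library, in TMM-normalized CPM on a log scale, with N2 in blue and *hpl-2*(*tm1489*) in orange. Symbols mark the replicate number and horizontal lines the group means. The 3 mutant values of *daf-18* lie between 111 and 257 CPM, above both N2 values, and those of *akt-2* lie between 12.7 and 13.5 CPM, below both.

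The largest change was in *daf-18*, which encodes the phosphatase that opposes AGE-1. N2 replicates 1 and 2 gave 2219 and 1322 counts, and mutant replicates 1 to 3 gave 24877, 12623 and 23480. Normalized, these were 27.6 and 24.6 CPM in N2 and 195, 111 and 257 CPM in the mutant. Every mutant library was far above both N2 libraries, and replicate 2 was the lowest of the mutant libraries. The log2 fold change was 2.85 (standard error 0.39, 95% interval 1.98 to 3.72; edgeR adjusted p = 0.000314). Its absolute size exceeded that of 88.5% of tested genes, and it ranked 1344 from the top by log2 fold change. It was called higher under all 15 alternatives run, with log2 fold changes from 2.49 to 3.06. The oocyte and eggshell list had the same order of libraries within the mutant, at 3897, 1431 and 5363 CPM in replicates 1, 2 and 3, and its part in the *daf-18* result was not tested.

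No other gene overlapped *daf-18* in the RefSeq table of WBcel235 used for names. The 3 tested genes with the profile nearest to *daf-18* over the 5 libraries, by the Euclidean distance of gene-centered log2 CPM, were *T24C2.2* (distance 0.0828), *dyf-3* (0.198) and *spsb-2* (0.302). Their log2 fold changes were 2.93, 2.86 and 3.06. Since the libraries of the 2 groups differ for most genes, such likeness over 5 libraries is a description only.

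The receptor gene *daf-2* was at 33.8 and 31.3 CPM in N2 and at 25.8, 12.5 and 29.4 CPM in *hpl-2*(*tm1489*) replicates 1, 2 and 3. All mutant libraries were below both N2 libraries, replicate 3 by little and replicate 2 by much. The log2 fold change of -0.53 (standard error 0.36, 95% interval -1.33 to 0.28) was not called (edgeR adjusted p = 0.239).

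For *age-1*, the catalytic subunit of the phosphoinositide kinase, levels were 28.9 and 30.9 CPM in N2 and 36.5, 16.6 and 45.8 CPM in the mutant. The groups overlapped, with replicate 2 below and the other mutant libraries above N2. Its log2 fold change was 0.14 (standard error 0.40, 95% interval -0.75 to 1.03; edgeR adjusted p = 0.785), an interval that leaves room for up to a 2.04-fold higher level. The sign of this value differed between alternatives, and it was -0.04 without *hpl-2*(*tm1489*) replicate 1 and -0.19 without replicate 3.

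*pdk-1*, which encodes the kinase that activates AKT-1, AKT-2 and SGK-1, was the gene nearest to the threshold among those not called. Its levels were 5.78 and 9.21 CPM in N2 and 4.41, 2.20 and 5.90 CPM in the mutant, with replicate 3 just above N2 replicate 1. The log2 fold change was -0.84 (standard error 0.41, 95% interval -1.76 to 0.07; edgeR adjusted p = 0.108). It was called lower under 8 of the 15 alternatives, among them those without N2 replicate 1 (-1.14), *hpl-2*(*tm1489*) replicate 2 (-0.63) or replicate 3 (-1.19), and its adjusted p over them ran from 0.0299 to 0.486.

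Of the AKT paralogs *akt-2* fell and *akt-1* was not called. *akt-2* was at 26.1 and 27.5 CPM in N2 and at 13.5, 12.9 and 12.7 CPM in *hpl-2*(*tm1489*), so that the mutant libraries agreed closely and lay well below both N2 libraries. Its log2 fold change was -1.04 (standard error 0.25, 95% interval -1.59 to -0.49; edgeR adjusted p = 0.00602), and it was called lower under all 15 alternatives.

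*akt-1*, the other AKT gene, was at 87.0 and 77.4 CPM in N2 and at 127, 83.4 and 148 CPM in the mutant, where replicate 2 lay between the N2 libraries. The log2 fold change of 0.54 (standard error 0.30, 95% interval -0.14 to 1.22) was not called (edgeR adjusted p = 0.157). Without *hpl-2*(*tm1489*) replicate 2 it was 0.64 and was called (adjusted p = 0.0155, against 0.0155 to 0.628 over all alternatives).

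*sgk-1* encodes the kinase that acts downstream of PDK-1 and of the TORC2 complex. It was at 92.5 and 86.6 CPM in N2 and at 58.8, 62.1 and 51.8 CPM in the mutant, with no overlap. The log2 fold change was -0.64 (standard error 0.25, 95% interval -1.19 to -0.08; edgeR adjusted p = 0.0529). The call was lost under 9 of the 15 alternatives, with adjusted p values from 0.00844 to 0.516 over all of them. It was lost without N2 replicate 1 (log2 fold change -0.58), N2 replicate 2 (-0.67), *hpl-2*(*tm1489*) replicate 1 (-0.70) or replicate 3 (-0.57).

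*daf-16*, which encodes the transcription factor at the end of the pathway, was at 99.9 and 137 CPM in N2 and at 70.6, 46.8 and 75.6 CPM in the mutant. The mutant libraries were all below N2, with replicate 2 again the lowest. Its log2 fold change was -0.88 (standard error 0.30, 95% interval -1.54 to -0.22; edgeR adjusted p = 0.0298). Without N2 replicate 2, the library with the higher *daf-16* level, it was -0.62 and the call was lost (adjusted p = 0.244, against 0.00419 to 0.411 over all alternatives).

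*sod-3*, which encodes a mitochondrial manganese superoxide dismutase and is a widely used readout of DAF-16 activity, had the fewest counts in N2. The N2 libraries held 141 and 111 counts and the mutant libraries 434, 406 and 438, or 1.75 and 2.06 CPM against 3.40, 3.58 and 4.80 CPM. All mutant libraries were above N2, and replicate 2 was not the lowest here. The log2 fold change was 1.04 (standard error 0.32, 95% interval 0.32 to 1.76; edgeR adjusted p = 0.0212). The call was lost under 3 of the 15 alternatives. With upper quartile normalization the log2 fold change was 0.71 and just missed the threshold (adjusted p = 0.101, against 0.0121 to 0.205 over all alternatives). It was 0.87 under the replicate block and 0.60 with offsets for gene span, without a call in either.

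**Figure D2:**
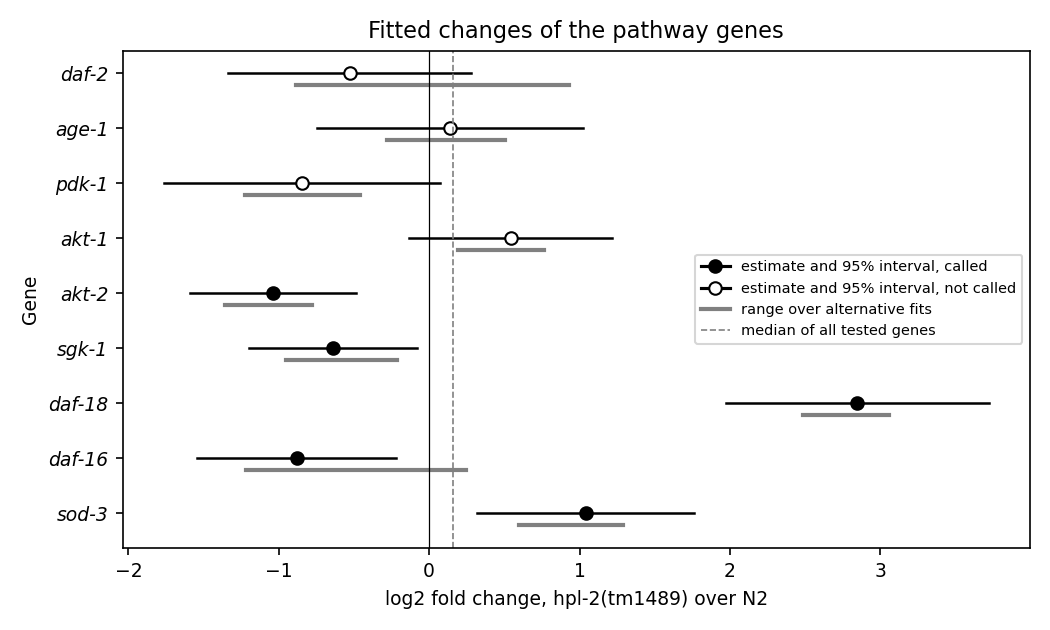
Fitted log2 fold change of *hpl-2*(*tm1489*) over N2 for each pathway gene (circles, filled where called) with its 95% interval (black lines) and the range over the alternative fits (gray bars). The dashed line is the median of all tested genes, 0.16. The range of *daf-18*, 2.49 to 3.06, and that of *akt-2* stay on one side of 0, whereas those of *daf-2*, *age-1* and *daf-16* cross it.

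Ratios of 2 transcripts in the same library do not depend on how libraries are scaled to each other, and 5 pairs were compared in this way. As the counts are not corrected for length, only the difference between groups is read. With 3 and 2 libraries there are 10 orderings, so that the smallest p of the exact permutation test (two-sided) is 0.1, and no pair could pass 0.05. The ratio of *daf-18* to *age-1*, the phosphatase to the kinase it opposes, was 0.953 and 0.795 in N2 and 5.33, 6.71 and 5.62 in *hpl-2*(*tm1489*). The difference was 6.72-fold (exact p = 0.1, 0.25 adjusted over the 5 pairs), and the mutant libraries agreed more closely in this ratio than in the level of either gene.

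The ratio of *akt-1* to *akt-2* was 3.34 and 2.82 in N2 and 9.46, 6.49 and 11.6 in the mutant, a difference of 2.91-fold with no overlap (exact p = 0.1, 0.25 adjusted). That of *sgk-1* to *akt-1* was 1.06 and 1.12 in N2 and 0.462, 0.744 and 0.349 in the mutant, 2.21-fold lower with no overlap (exact p = 0.2, 0.333 adjusted). Neither difference could pass 0.05 with these numbers of libraries.

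The ratio of *daf-16* to *daf-2* ran from 2.57 to 3.74 in the mutant and was 2.95 and 4.37 in N2, and the groups overlapped (exact p = 0.5, 0.625 adjusted). That of *sod-3* to its mitochondrial paralog *sod-2* was 0.0108 and 0.0114 in N2 and 0.0115, 0.0085 and 0.0144 in the mutant (exact p = 0.9, 0.9 adjusted). Both genes of this pair were called higher in the main fit and neither with offsets for gene span, and no difference in their proportion was detectable with 5 libraries. Only uniquely mapped reads were counted, so reads from stretches that are identical in paralogs such as these, if any, are missing.

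**Figure D3:**
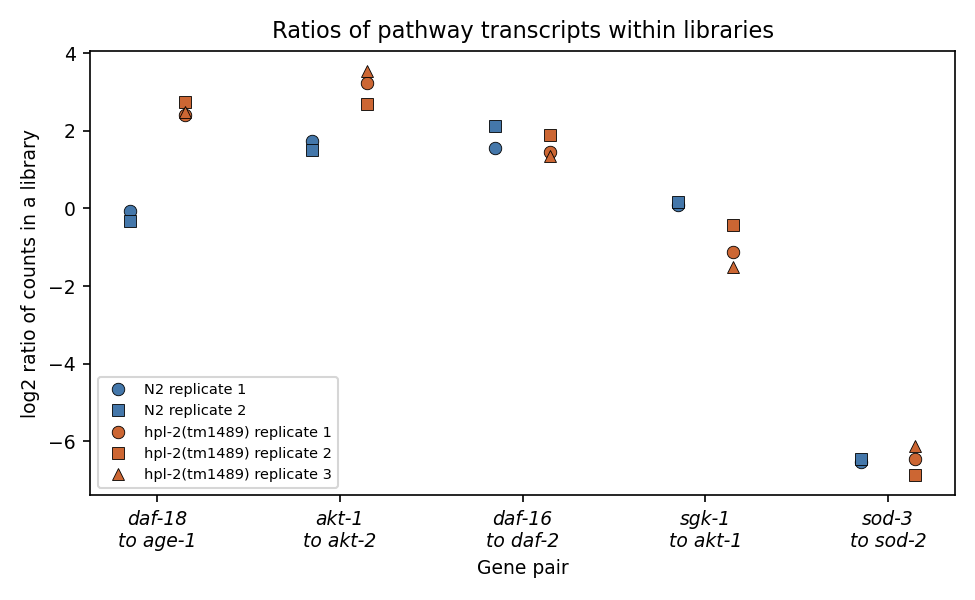
The log2 ratio of the counts of 2 pathway genes in each library, for 5 gene pairs. N2 is in blue and *hpl-2*(*tm1489*) in orange, with symbols for the replicate number. For *daf-18* to *age-1* the mutant libraries lie between 2.41 and 2.75 and the N2 libraries between -0.33 and -0.07, and for *sod-3* to *sod-2* the groups overlap.

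Fold changes in these libraries fell with the genomic span of the gene. The median log2 fold change was 0.97 in the decile of tested genes with the shortest spans and -0.60 in the decile with the longest. *daf-2* and *daf-16* are among the longest genes, with spans longer than those of 99.9% and 99.5% of tested genes, and their values of -0.53 and -0.88 stand beside that -0.60. With offsets that remove the trend with span in each library, *daf-2* reversed to 0.93 and was called higher (adjusted p = 0.0156, against 0.0156 to 0.489 over all alternatives). *daf-16* reversed to 0.25 without a call (adjusted p = 0.411). For both genes the offsets moved the value by more than the size of the decile median, -0.60. Few tested genes are as long, and how well the offsets hold at this end of the span range was not tested. *age-1* and *sgk-1* were also in the longest decile, and with these offsets they were at 0.51 and -0.21, neither of them called.

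*daf-18* was in span decile 9, with a median of -0.24, and its value with the offsets was 3.05. *akt-1* and *akt-2* were both in decile 8, with a median of -0.05, and came to 0.61 and -0.89, each called. *pdk-1*, in decile 9, was at -0.54 and was not called. *sod-3*, in decile 4 with a median of 0.43, came to 0.60 and lost its call (adjusted p = 0.141). Against the main fit, the calls of *daf-18* and *akt-2* held with this correction, *akt-1* gained a call, and the values of *daf-2* and *daf-16* changed sign. *akt-1* was also called with library size alone and without *hpl-2*(*tm1489*) replicate 2.

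**Figure D4:**
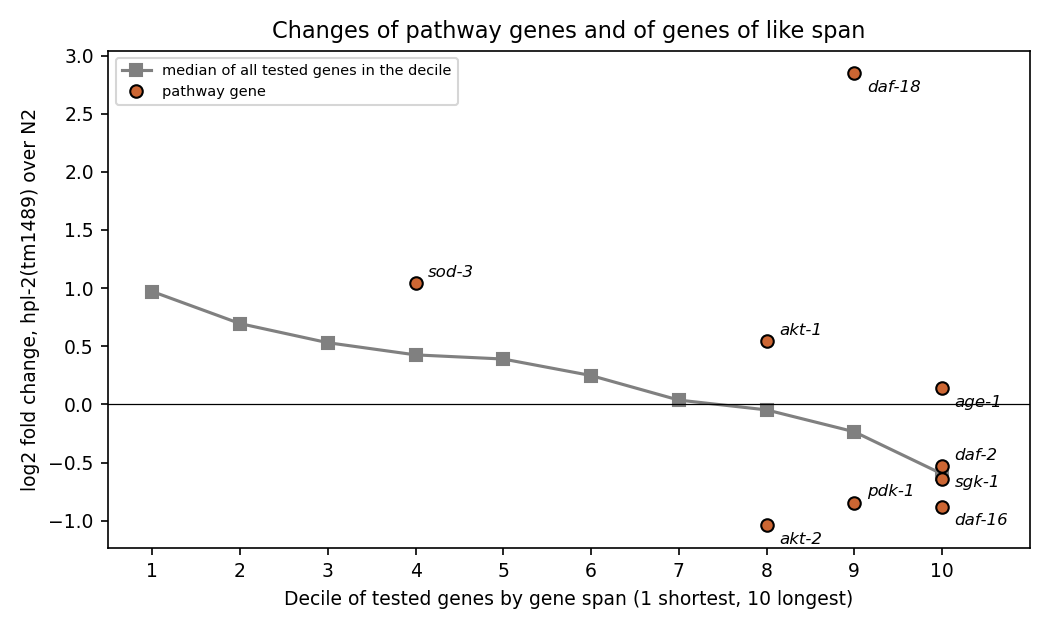
Log2 fold change of each pathway gene (orange circles) by the decile of tested genes its genomic span falls in, with the median of all tested genes in each decile (gray squares). The medians fall from 0.97 to -0.60 with span. *daf-2*, *sgk-1* and *daf-16* lie near the median of the longest decile, and *daf-18* lies far above that of its own.

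Within *hpl-2*(*tm1489*), replicate 2 was the lowest of the 3 libraries for *daf-2*, *age-1*, *pdk-1*, *akt-1*, *daf-18* and *daf-16*, 6 of the 9 genes, against 41.9% of tested genes. The coefficient of variation among the mutant libraries was 45.3% for *age-1*, 44.6% for *pdk-1*, 39.4% for *daf-2* and 39.0% for *daf-18*. It was 2.99% for *akt-2* and 9.13% for *sgk-1*, which did not share this pattern. N2 replicates differed less for most of the genes, with coefficients from 3.67% to 11.5% except for *daf-16* (22.0%) and *pdk-1* (32.4%). The summed oocyte list was also lowest in replicate 2, and its part in this pattern was not tested.

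Whether the counting used the strand is not given in the sources used here, so counts of overlapping genes are uncertain. In the RefSeq table *age-1* overlaps *Y62F5A.10* and *B0334.10*, *pdk-1* overlaps *F21E9.2*, *akt-1* overlaps *rop-1*, and *sod-3* overlaps *lido-1* and *C08A9.3*. *F21E9.2* fell from 225 and 144 counts in N2 to 6, 2 and 2 counts in the mutant, whereas *pdk-1* had 465 and 496 against 564, 250 and 539 counts. *lido-1* had 215 and 170 counts in N2 and 642, 342 and 461 in the mutant, similar in number to those of *sod-3*. *rop-1* had 10590 and 7178 counts in N2, more than *akt-1* at 7001 and 4169, and 16598, 11999 and 11285 in the mutant. *Y62F5A.10* fell from 657 and 487 counts to 229, 172 and 177, whereas *age-1* had 2328 and 1662 against 4669, 1882 and 4180. How many reads these genes share was not tested.

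Beyond these genes, 56 genes around the pathway were listed in 4 groups, of which 52 were tested, 20 called higher and 16 lower, beside 33.9% higher and 27.6% lower among all tested genes. Among 27 regulators of the pathway 24 were tested, 5 were called higher and 8 lower, with a median log2 fold change of -0.22. Upper quartile normalization made this split 3 and 11, and library size alone made it 7 and 6. *swsn-1* was not matched by name, and *eak-3* and *eak-4* had 7 counts or fewer in every library. *aap-1*, the adaptor subunit that works with AGE-1, rose by 0.90 (standard error 0.31), from 1768 and 1161 counts to 5276, 3381 and 4613. The *aap-1* call was lost under 6 of 16 alternatives, among them upper quartile normalization (0.55) and the replicate block (0.69). It was also lost without N2 replicate 1 (0.92), N2 replicate 2 (0.89) or *hpl-2*(*tm1489*) replicate 1 (0.80). *ist-1*, the insulin receptor substrate homolog, had the largest fall at -1.90 (0.39), from 266 and 227 counts to 116, 74 and 135, and *pptr-1*, a phosphatase 2A subunit that acts against AKT-1, was at -1.70 (0.31). The highest value was that of *sir-2.1*, a sirtuin deacetylase, at 1.94 (0.38), from 29.1 CPM in N2 on average to 112 CPM. The N2 libraries were at 39.4 and 18.8 CPM, and the log2 fold change was 2.58 without N2 replicate 1 and 1.51 without N2 replicate 2.

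The 14-3-3 proteins FTT-2 and PAR-5 bind phosphorylated DAF-16. *ftt-2* fell, with a log2 fold change of -1.45 (standard error 0.27), from 51044 and 44835 counts in N2 to 38221, 24917 and 26252. *par-5* was at 0.28 (0.28) and was not called, and with upper quartile normalization its value was -0.056. *hcf-1*, a nuclear repressor of DAF-16, rose by 0.81 (0.29), a call that was lost under 7 of 16 alternatives, among them those without N2 replicate 1 (0.75), N2 replicate 2 (0.90), *hpl-2*(*tm1489*) replicate 1 (0.72) or replicate 3 (0.62). *smk-1*, a DAF-16 coregulator, at -0.05 (0.33) and *rict-1*, a TORC2 subunit upstream of SGK-1, at -0.58 (0.35) were not called, and the sign of both depended on the alternative. *rict-1* was called lower under 3 of 16 alternatives. *sinh-1*, the other TORC2 subunit of the list, was called higher at 1.80 (0.34). The edgeR adjusted p values of the genes called here, *aap-1*, *ist-1*, *pptr-1*, *sir-2.1*, *ftt-2*, *hcf-1* and *sinh-1*, were from 0.00136 to 0.0397.

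The superoxide dismutases besides *sod-3* did not move as one. *sod-2* (log2 fold change 1.03, standard error 0.27) and *sod-4* (1.16, 0.28) rose, *sod-1*, the cytosolic enzyme, fell by 0.64 (0.28) and *sod-5*, at 15 to 56 counts per library, was at -1.06 (0.52) without a call (edgeR adjusted p = 0.111). *sod-2* went from 171 CPM on average in N2 to 349 CPM in the mutant, and with offsets for gene span its log2 fold change was 0.48 and the call was lost (adjusted p = 0.147). The median of these 4 genes was 0.20. *sod-1* lost its call without N2 replicate 1 (log2 fold change -0.79) and without N2 replicate 2 (-0.45), with adjusted p values of 0.125 and 0.391 in a range of 0.00741 to 0.391 over its alternatives.

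Of 17 genes that DAF-16 is known to raise when insulin signaling is low, 16 were tested, 5 were called higher and 7 lower, with a median of -0.64. Over all tested genes 61.5% were called, 33.9% higher and 27.6% lower. The 5 that rose were all small heat shock protein genes. *hsp-12.6* was at 8 and 5 counts in N2 and at 162, 452 and 189 counts in the mutant, and its log2 fold change was 4.64 (standard error 0.65; edgeR adjusted p = 0.000342) and 3.98 without *hpl-2*(*tm1489*) replicate 2. *hsp-16.1* had no count in N2 and 16, 15 and 15 counts in the mutant, at least 3.02-fold higher against a floor of 3 counts per library, and *hsp-16.2*, *hsp-16.41* and *sip-1* were at 3.35, 4.08 and 2.15. The *hsp-16* genes have near-identical copies, so their counts are uncertain. *sip-1* was at 288, 96.2 and 366 CPM in mutant replicates 1, 2 and 3. The summed oocyte list had the same order of libraries, and its part in the *sip-1* value was not tested.

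The genes of this list that fell included *dod-3*, with the largest fall, at -4.29 (standard error 0.37), from 2376 and 1051 counts to 220, 92 and 111 counts. *ctl-2*, the peroxisomal catalase gene, was at -1.01 (0.26). Also called lower were *mtl-2*, *fat-5*, *ftn-1*, *gei-7* and *nnt-1*, at -3.07 to -1.26. *mtl-1*, a metallothionein gene, at -0.49 (0.46) and *lys-7*, a lysozyme gene, at -0.79 (0.49) were not called, and *mtl-1* turned to 0.30 without N2 replicate 1. *lys-7* was called lower under 7 of 16 alternatives, among them those without *hpl-2*(*tm1489*) replicate 1 (-1.09), replicate 2 (-0.48) or replicate 3 (-1.15).

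All 8 genes listed as lowered by DAF-16, *dod-17* to *dod-24*, were called higher, with a median of 2.32, against 33.9% of all tested genes. *dod-21* had the largest rise, from 12 and 0 counts in N2 to 1250, 1429 and 995 counts in the mutant, with a log2 fold change of 7.005 (standard error 0.70). Without N2 replicate 1 the remaining N2 library is at 0, and the fitted value then has no fixed size, and without N2 replicate 2 it was 6.21. *dod-17*, at 0.81 (0.28), and *dod-24*, at 0.61 (0.28), had the smallest. *dod-24* kept its call under 2 of 16 alternatives, with adjusted p values from 0.0331 to 0.863, and was lost without any one of the 5 libraries, where its log2 fold change ran from 0.32 to 0.69. *dod-17* lost its call under 7 of 16 alternatives, among them upper quartile normalization (0.51), scaling to *pmp-3* (0.98), the replicate block (0.94), offsets for gene span (0.48) and the omission of N2 replicate 1 (0.75) or N2 replicate 2 (0.89). The number called ran from 6 to 8 of 8 over the alternatives, all higher. This list is a single named gene series and does not hold every gene that DAF-16 lowers. Vitellogenin genes were kept in a stage list instead, where 6 of 6 were called lower.

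**Figure D5:**
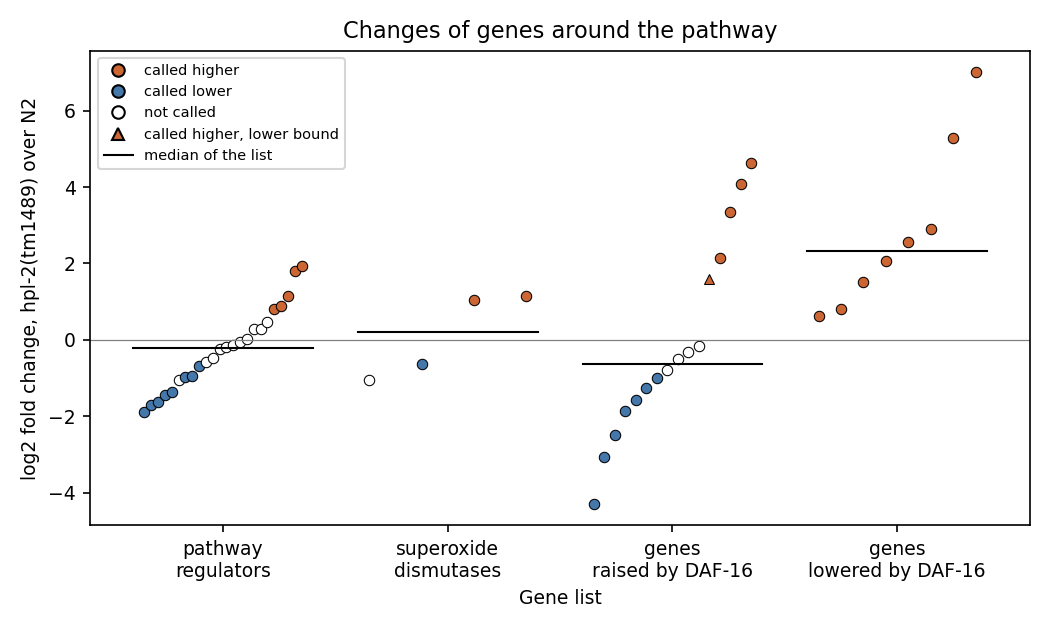
Log2 fold change of *hpl-2*(*tm1489*) over N2 for the tested genes of 4 lists around the pathway, ordered within each list, with the list median as a line. Orange marks genes called higher, blue those called lower, white those not called, and the triangle is *hsp-16.1* at its lower bound. All 8 symbols in the list of genes lowered by DAF-16 are orange, and the genes raised by DAF-16 hold 5 orange and 7 blue symbols.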

How the data were processed

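Poly(A) RNA was analyzed from 2 N2 and 3 *hpl-2*(*tm1489*) samples; the ChIP-seq, J2 immunoprecipitation and input RNA samples were not used here. The deposited table holds raw counts per gene: after trimming and TopHat2 2.0.14 alignment to WS220, the authors assigned reads with a unique position to annotated genes in Rsubread, without normalization. Each of the 5 count columns was matched to a sample by its name.

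From these counts, edgeR 4.0.16 in R 4.3.3 was used with filterByExpr (minimum count 10), TMM normalization and its robust quasi-likelihood test, with genotype as the only term. Benjamini-Hochberg adjustment ran over the 17498 tested genes, and an adjusted p under 0.1 was taken as a call. Standard errors were derived from the fold change and the F statistic. CPM were computed from TMM-adjusted library sizes. On counts simulated for these genes, of which 17221 were run, 193 of 200 genes changed by 2 on the log2 scale were called. Of the calls 14.6% were unchanged genes, more than the 10% that the threshold sets. The changed genes were taken from those with high counts and were few, whereas 61.5% of tested genes were called in the data. Smaller changes, such as those of most pathway genes, were not simulated.

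The genes and lists were chosen with earlier results of these data known. All 9 pathway genes, the physical partners among the regulators, the superoxide dismutases, a few fixed targets and the largest called change of each list in each direction were named. Alternatives were DESeq2 1.42.0, other scalings and filters, stricter thresholds, a replicate block, offsets for gene span, and each library left out. A RefSeq table of WBcel235, matched by name, gave the span of 97.1% of tested genes and the neighbors of pathway genes. Library totals were from 66490671 to 114718047 counts, and the 2 or 3 libraries per group limit the precision.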

Additional observations from a re-analysis of the deposited data

How the results depend on the processing

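Called as higher or lower under all 15 alternatives were *daf-18* and *akt-2*. The other pathway genes depended on at least 1 choice. With upper quartile normalization *daf-2* (-0.89) and *pdk-1* (-1.20) were called lower, *sod-3* (0.71) lost its call and *age-1* reversed (-0.22), and with library size alone *akt-1* (0.76) was called and *sgk-1* (-0.38) was not. Scaling to *pmp-3* took the call from *sgk-1* (-0.51). DESeq2 (-0.93), its size factors (-0.93) and no low-count filter (-0.93) called *pdk-1*. An adjusted p under 0.05 dropped *sgk-1* (-0.64). With offsets for gene span *daf-2* (0.93) and *daf-16* (0.25) reversed, *akt-1* (0.61) was called, and *sgk-1* (-0.21) and *sod-3* (0.60) were not. Over all tested genes the median was -0.16 on the log2 scale with upper quartile normalization, 0.41 with library size alone and 0.01 with span offsets, so the scalings moved every gene by construction; other causes were not tested.

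With each library left out, log2 fold changes ran from -0.78 to -0.34 for *daf-2*, -0.19 to 0.36 for *age-1*, -1.19 to -0.46 for *pdk-1*, 0.35 to 0.64 for *akt-1*, -0.79 to -0.57 for *sgk-1* and -1.08 to -0.62 for *daf-16*. A lone N2 library was then assumed to vary like the mutant libraries. Without *hpl-2*(*tm1489*) replicate 1, 4 pathway genes and 10 regulators were called. These numbers were 7 and 15 without replicate 2, and 5 and 12 without replicate 3. The calls over all genes moved too. They were 9335 of 17210 tested genes without replicate 1, 11254 of 17110 without replicate 2 and 9598 of 17245 without replicate 3. The main fit called 10757 of 17498. An absolute log2 fold change above 1 left 3 pathway genes and 8 regulators called. The difference in log2 ratio of *daf-16* to *daf-2* (-0.27) turned to 0.0098 without N2 replicate 2 and otherwise ran down to -0.56, and that of *sod-3* to *sod-2* (0.01) ran from -0.17 to 0.21.

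Replicate numbers 1 and 2 occur in both groups, and deviations of same-numbered libraries from their group means correlated at -0.168 and -0.257. With 2 N2 libraries the N2 deviations mirror each other, so these values cannot settle whether same-numbered libraries were linked. Under the replicate block 4 pathway genes, 8 regulators and 7879 of all genes (10757 without it) were called, *pdk-1* (-1.22) was called, *sgk-1* (-0.57) and *sod-3* (0.87) were not, and *age-1* was at -0.28.

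Of 367 values of the 23 other named genes under alternatives, 41 lost and 17 gained a call and 7 reversed: *par-5* with upper quartile normalization (-0.056) and span offsets (-0.20), *rict-1* (0.29) with span offsets, *smk-1* with library size alone (0.17), span offsets (0.35) and when 1 library was left out (-0.31 to 0.11), and *mtl-1* when 1 library was left out (-0.99 to 0.30).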

Other observations

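The genes next to *daf-18* in the RefSeq table of WBcel235 were *eri-1*, which encodes an exonuclease that limits RNA interference, and *garr-1*. *eri-1* was higher in *hpl-2*(*tm1489*), at 33.8, 35.8 and 39.8 CPM against 16.38 and 12.39 CPM in N2 (log2 fold change 1.34, edgeR adjusted p = 0.00333). *garr-1* was at 143, 102 and 166 CPM against 177 and 231 CPM and was not called (log2 fold change -0.57, adjusted p = 0.116). Neither neighbor rose as much as *daf-18*. These genes were looked up after the *daf-18* value was seen.

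Next to *sod-3*, *C08A9.10* rose, with 480 and 78 counts in N2 and with 10958, 24126 and 10580 in the mutant (log2 fold change 5.21, edgeR adjusted p = 0.000261). Next to *sgk-1*, *mua-6*, which encodes an epidermal intermediate filament protein, fell from 176 and 291 CPM to 57.9, 51.3 and 59.5 CPM (log2 fold change -2.05, adjusted p = 0.000328). Next to *age-1*, *mdt-8*, a Mediator subunit gene, rose from 13.2 and 9.94 CPM to 36.4, 24.2 and 44.9 CPM (log2 fold change 1.60, adjusted p = 0.00346). The genes of this paragraph were picked from the called neighbors, and 61.5% of all tested genes were called. Other neighbors were not called, among them *C12D8.9* next to *akt-1* (log2 fold change 0.02) and *ceh-89* next to *akt-2* (-0.10). Whether any of these neighbors share regulation with the pathway genes was not tested.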
